A study of Mus musculus with 13 samples.

Results

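Undifferentiated female mouse embryonic stem cells (mESCs) were compared with cells of the same hybrid background on day 6 of differentiation, by RNA-seq. The comparison used 4 of the 13 libraries of the series, identified by their titles: 1 library of undifferentiated cells (Day0) and the 3 libraries of day 6. Most listed naive pluripotency genes and all 8 mitochondrially encoded genes that passed the filter were lower on day 6, as were 9 of 23 germline genes. Most formative pluripotency, ERK feedback, smooth muscle contractile and imprinted genes that passed the filter were higher. Genes on the X chromosome were lower as a set than genes on any autosome, and Xist was 114-fold higher.

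The study knocked down Smarcc1, which encodes a scaffold protein of the BAF chromatin remodeller, to ask what the complex does during X chromosome inactivation (XCI). All cells were female F1 hybrids of FVB and CAST, expanded in 2i medium, which contains inhibitors of MEK and GSK3. Differentiation was undirected, by stepwise transfer to DME HiHi, a medium with serum and without LIF or the inhibitors. On day 2 the differentiating cells were transduced with a virus carrying a short hairpin RNA, and puromycin was applied on day 3. The day 6 libraries carried a nonsilencing hairpin (Nons) or 1 of 2 hairpins against Smarcc1 (Smarcc1.6 and Smarcc1.7), with 1 library each, and the Day0 cells had been harvested before any virus or puromycin. Day, medium, transduction and selection therefore changed together between Day0 and day 6 and cannot be told apart. Nothing in the labels says how many lines or cultures the libraries came from.

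The hairpins are shown by their guide strands, because they are what distinguishes the 3 libraries of day 6. Each guide is given 5′ to 3′ with its seed, bases 2 to 8, in capitals:
Smarcc1.6: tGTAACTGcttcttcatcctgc
Smarcc1.7: tTGCTCATcttcttccttctga
Nons: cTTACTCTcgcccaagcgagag
The reverse complement of the Smarcc1.6 guide was found at chr9:110177472-110177493 and that of Smarcc1.7 at chr9:110173911-110173932 (mm10, plus strand, GENCODE M21), in coding exons 13 and 11 of the 28 exons of Smarcc1. Both matched transcripts of no other gene, and the Nons guide matched no transcript over its full length of 22 bases. Smarcc1 itself (chr9:110132037-110240178) stood at 8.01 log2 CPM (reads per gene scaled to library depth) before differentiation and at 8.28, 7.28 and 7.17 on day 6. Here and below, 3 values of day 6 follow the order Nons, Smarcc1.6, Smarcc1.7, and levels without a unit are log2 CPM. Nons was above Day0 and both hairpin libraries were below it, so the gene was not called in the comparison with Day0, and the hairpin libraries stood 1.00 and 1.11 log2 units below Nons.

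A gene was called where all 3 day 6 libraries differed from Day0 by at least 1 on the log2 CPM scale, in the same direction. Because Day0 is 1 library, this is a rule of size and not a test, and no p-value is given for it. Where a mean ± SD is given, n = 3 libraries of day 6 that differ in hairpin, so the SD holds the hairpin effect as well as the spread between cultures. Folds compare the mean log2 CPM of day 6 with Day0. Depth was 22287021 mapped reads at Day0 and 31802558 to 37246413 on day 6. The 4 libraries resembled each other, and not the other 9, in the share of reads inside genes (85.3% to 86.5%, against 91.6% to 92.6%), on processed pseudogenes (1.29% to 1.47%, against 0.295% to 0.398%) and on ribosomal protein genes (1.77% to 2.29%, against 4.55% to 7.43%). Comparisons with days 4, 5 and 7 cross that boundary, and the comparison of Day0 with day 6 does not. This likeness was known beforehand and was a reason for choosing the 4 libraries, so it is no independent check on them.

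Of the 25965 genes in the table, 13716 reached a CPM of 1 averaged over Day0 and day 6. Among these, 2217 genes (16.2%) were called higher on day 6 and 1387 (10.1%) lower, and the median difference over all of them was 0.11 log2 units. The median absolute difference from Day0 was 0.57, against a median SD of 0.16 among the 3 day 6 libraries, and Day0 lay inside the range of day 6 for 2087 genes (15.2%). With a smallest difference of 3 log2 units, 734 genes were higher and 279 lower, and at 5 units 268 were higher and 72 lower. A gene that is nearly silent on one side passes the filter only if it is high on the other, so counts of listed genes below are read against these shares and members under the filter are counted beside their list. Since these are bulk samples, fewer cells of a type and less RNA per cell cannot be told apart.

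**Figure D1:**
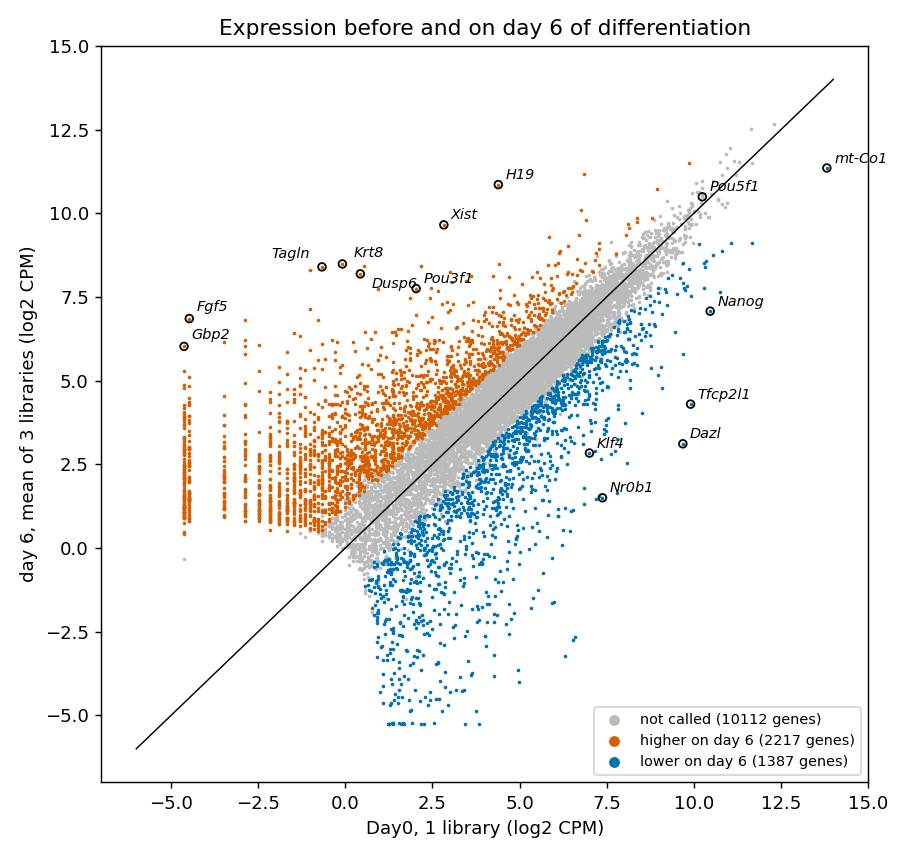
Each point is 1 of the 13716 genes that passed the filter, with its log2 CPM in the Day0 library on the horizontal axis and the mean log2 CPM of the 3 day 6 libraries on the vertical axis. The black line marks equal levels. Colours mark the 2217 genes called higher and the 1387 called lower, and the vertical stripes at the left are genes with 0, 1, 2 or 3 reads at Day0.

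With predicted genes left out (symbols beginning with Gm or ending in Rik or -ps), the largest increases were led by Fgf5, a fibroblast growth factor of the formative epiblast. It had 1 read at Day0 and day 6 levels of 6.67, 6.89 and 7.00, from 3591, 4418 and 4074 reads. Gbp2, an interferon-induced guanylate binding protein, had 0 reads at Day0 and log2 CPM of 5.76, 5.89 and 6.42, which is at least 483-fold higher when Day0 is set to 3 reads. On the same footing Stmn4, a stathmin, was at least 217-fold higher, Enpp2, the enzyme that makes lysophosphatidic acid, at least 205-fold, and Hpn, a membrane serine protease, at least 144-fold. The 12 largest increases also included Zfp608, Epha1, Pcdh1, Marveld3, Has2 and Slc40a1, each with 1 to 3 reads at Day0 and a log2 CPM between 4.66 (Marveld3, Nons) and 7.11 (Pcdh1, Smarcc1.6) on day 6. Epha1 is an ephrin receptor, Pcdh1 a protocadherin, Marveld3 a tight junction protein, Has2 a hyaluronan synthase and Slc40a1 the iron exporter. In all 12 every day 6 library had at least 632 reads.

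With predicted genes again left out, the largest decreases were led by Stk33, a serine/threonine kinase gene. It had 1745 reads at Day0 (log2 CPM 6.29) and 2, 5 and 5 reads in Nons, Smarcc1.6 and Smarcc1.7. Crygd, which encodes a lens crystallin, had 240 reads at Day0 and 0 in all 3 libraries of day 6, at least 124-fold lower with day 6 set to 3 reads per library. Prap1 (at least 55.5-fold) and the X-linked Magea3 (at least 37.3-fold) also had 0 reads in every day 6 library. Trpm1, a cation channel gene, went from 2130 reads to 2, 21 and 4, and Aspa, the aspartoacylase gene, from 689 to 7, 3 and 1. Abcc12, Serpinb6c, Crxos1, Crygc and Rac2 were also among the 12 largest decreases, with 70 to 1355 reads at Day0 and 0 to 19 on day 6. Crygc and Crygd belong to a cluster of similar crystallin genes and Magea3 to a family of near-identical copies, so reads may be split among relatives and these values are uncertain.

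Pluripotent stem cells in 2i are held in a naive state by a network of transcription factors that includes Klf4, Esrrb, Tfcp2l1 and Nanog. When the inhibitors and LIF are withdrawn the network is dismantled within days, the cells pass through a formative state marked by Fgf5, Otx2 and Pou3f1 and become competent to enter the germ layers, and female cells silence 1 of their X chromosomes. Pou5f1 and Sall4 are shared by the naive and the formative state.

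Naive pluripotency genes were lower on day 6. Of 16 listed genes, all of which passed the filter, 14 were called lower and 0 higher, with a median difference of -4.12 log2 units (Nons -4.64, Smarcc1.6 -3.49, Smarcc1.7 -4.11). Nanog, a central factor of the network, went from 10.47 to 7.00, 7.25 and 6.98, which is 10.5-fold lower. Klf4, a Krüppel-like factor, went from 7.00 to 2.47, 3.51 and 2.53, an 18-fold decrease. Zfp42, the gene of the naive marker Rex1, went from 8.98 to 4.46, 5.70 and 5.36, and the orphan nuclear receptor Esrrb from 9.08 to 4.05, 5.46 and 4.81. In these last 2 genes Nons was the lowest library and Smarcc1.6 the highest of day 6, and all stayed far under Day0. The largest decreases of the list were in Nr0b1, a nuclear receptor gene on the X chromosome (58.8-fold), Tbx3, a T-box factor (52.9-fold), Tfcp2l1 (48.8-fold) and Prdm14, a repressor of differentiation genes (41.6-fold). The genes that were not called were Dppa3 (5.51 to 3.26, 4.59 and 4.24) and Fgf4 (7.62 to 5.53, 7.23 and 6.98), for which at least 1 hairpin library was within 1 log2 unit of Day0.

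General pluripotency factors did not share a direction. Among 15 listed genes 2 were called higher and 3 lower, and the median difference was 0.25, near that of all genes. Pou5f1, which encodes Oct4, stood at 10.24 and on day 6 at 10.54, 10.35 and 10.58, and Sall4 had 7.96 and 7.91, 7.79 and 7.47. Neither gene was called, and Pou5f1 was slightly above Day0 in all 3 libraries. Sox2, the partner of Oct4 in mESCs, was called lower, from 8.89 to 6.09, 7.11 and 6.73. Dppa5a (8.60-fold) and the TGF-beta family member Gdf3 (2.22-fold) were lower too. Lin28a, which blocks the maturation of let-7 miRNAs, was 10.9-fold higher, from 5.83 to 9.30, 9.30 and 9.23, and Utf1 was 3.89-fold higher.

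Formative and primed state genes were higher in 10 of 16 cases and lower in 0, with a median difference of 2.09. Besides Fgf5, the POU factor Pou3f1 was 52.7-fold higher, from 2.03 to 7.47, 7.88 and 7.90. Otx2, a homeodomain factor that directs exit from the naive state, went from 4.40 to 6.34, 7.25 and 7.29. Sox11 was 77.1-fold and Sall2 45.9-fold higher, and Dnmt3b, a de novo DNA methyltransferase, went from 6.75 to 9.59, 10.38 and 10.28. For Otx2, Pou3f1 and Dnmt3b the Nons value was the lowest of the 3, and every value of day 6 was above Day0.

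MEK, which 2i inhibits, activates ERK, and ERK induces its own inhibitors. Of 17 genes in this feedback list, 12 were called higher and 0 lower, with a median difference of 1.91. Dusp6, the phosphatase that removes the activating phosphates of ERK, went from 0.43 to 8.23, 8.13 and 8.21, a 217-fold increase with an SD of 0.05 on the log2 scale. The Sprouty genes Spry4 and Spry2, inhibitors of receptor signalling to ERK, were 109-fold and 2.33-fold higher, though Spry2 was not called after centring on the autosomal median or median-of-ratios scaling. Dusp4, a related phosphatase, was 48.4-fold higher, and the immediate early factor Egr1 was 17.4-fold higher. The mean of the 3 libraries stood 7.76 log2 units above Day0 for Dusp6.

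**Figure D2:**
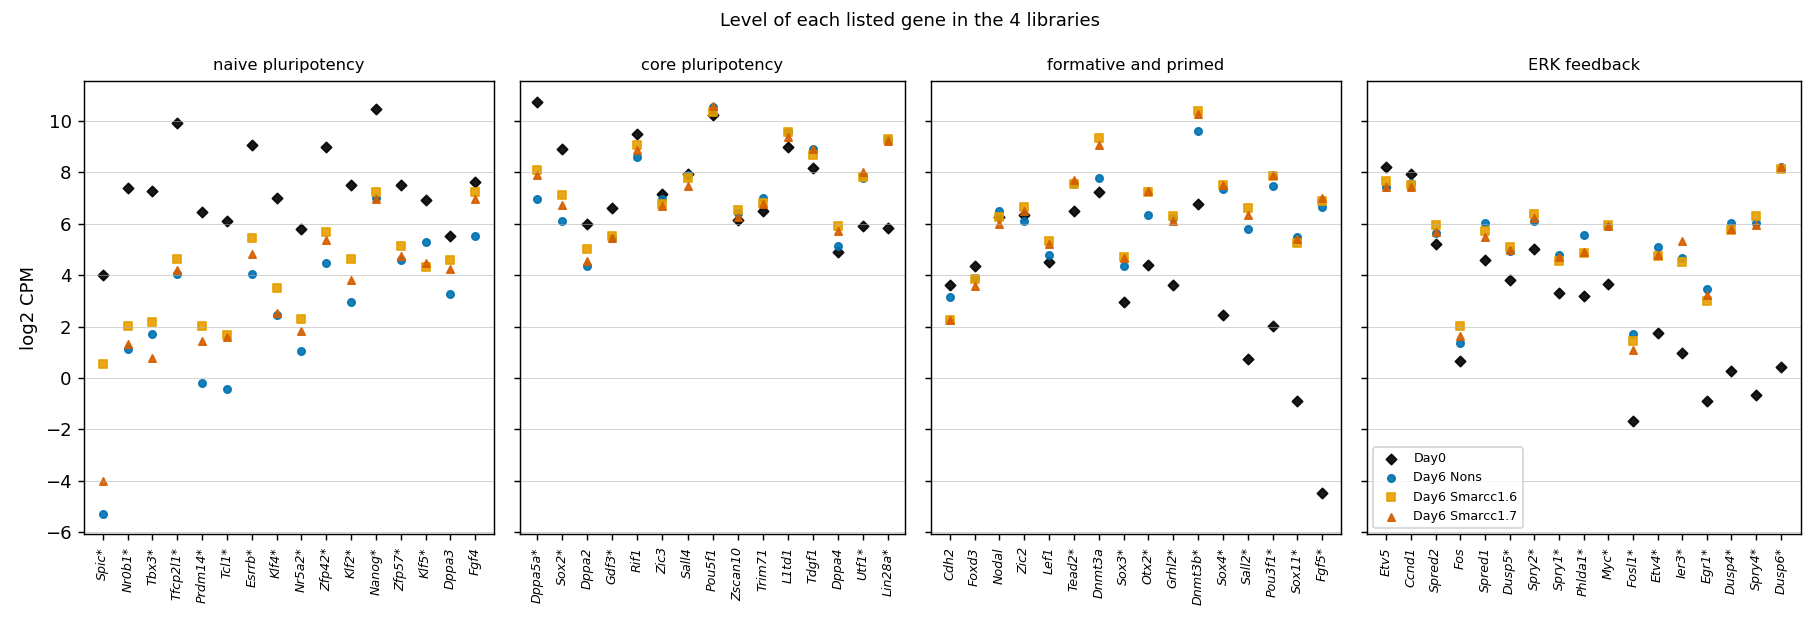
Log2 CPM of every listed gene that passed the filter, in Day0 (diamonds), Nons (circles), Smarcc1.6 (squares) and Smarcc1.7 (triangles), with genes of each list ordered by their mean difference. An asterisk marks called genes. The diamonds lie above the other symbols for the naive list and below them for most of the formative and ERK lists, while the core list is mixed.

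Targets of the 2 other pathways that 2i and LIF act on were lower in part. GSK3 inhibition stabilises beta-catenin and so raises Wnt targets: of 13 Wnt targets that passed the filter 3 were higher and 4 lower, and another 3 listed genes were under the filter. Notum, a secreted Wnt inhibitor, went from 5.68 to -1.23, -0.36 and -0.67, which is 86.4-fold lower, and the homeobox gene Cdx1 from 5.99 to -0.05, -1.76 and -2.99. Sp5 went from 4.56 to 3.20, -0.26 and -0.35, so that most of its mean decrease came from the hairpin libraries. Axin2 was not called, at 4.85 and 4.6, 3.52 and 3.65. The early mesoderm factor T had 2.78 at Day0, 5.03 in Nons and 0.87 and 0.10 in the hairpin libraries, on both sides of Day0. Nkd1 and Nkd2, inhibitors of Wnt signalling that are themselves Wnt targets, were higher, Nkd2 by 9.09-fold.

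Components and targets of LIF and STAT3 signalling were lower in 6 and higher in 2 of 13 cases, with 1 more under the filter. The LIF receptor gene Lifr went from 4.68 to 3.17, 2.81 and 2.39, its co-receptor Il6st from 6.99 to 5.05, 5.42 and 5.02, and Stat3 from 5.53 to 4.48, 4.24 and 4.05. Socs3, the feedback inhibitor, was 3.95-fold lower. Another inhibitor of this family, Cish, was 22.2-fold higher, and Junb, an AP-1 factor, was 6.06-fold higher. Klf4 and Tfcp2l1 stand in this list as well as in the naive list.

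Genes of the germ layers were mostly low at Day0, and many stayed under the filter. Among 24 primitive streak and mesoderm genes, 13 were under the filter, 5 were higher and 0 lower. Eomes, a T-box factor of the streak, went from 2.71 to 6.16, 4.40 and 4.38 and Wnt3 from -0.48 to 4.37, 3.09 and 2.56, and Twist1 was 3.60-fold higher. Hand1 had 2 reads at Day0 and 523, 519 and 318 on day 6. Nons was the highest library for all of these, and Mixl1 was not called, with 0.05 at Day0, 2.76 in Nons and -0.36 and -1.18 in the hairpin libraries. Of 20 endoderm genes 9 were under the filter and 5 were higher, among them Sox17 (-0.57 to 2.09, 0.45 and 0.68), Gata4 (4.35-fold), the endocytic adaptor Dab2 (10.7-fold) and the laminin gene Lamb1 (4.94-fold). Sox17 was not called after centring or median-of-ratios scaling, and Foxa2 and Gata6 were under the filter. Of 17 neuroectoderm genes 11 were under the filter, and of the others 3 were higher and 1 lower. Nes, an intermediate filament of neural progenitors, was 6.53-fold higher and Neurod1 20.4-fold higher, and the adhesion molecule Ncam1 was 26.9-fold lower. Sox1 had 1 read at Day0, 16 in Nons and 373 and 219 in the hairpin libraries. Pax6 and Tubb3 were not called. The median of the list was 1.25 over the 3 libraries but -0.75 when Nons was the sole day 6 library and also set the filter.

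Epithelial genes gave some of the largest differences. The list of trophoblast and simple epithelium genes had 8 higher and 1 lower of 13, with 2 more under the filter, and the keratins led it. Krt8 went from -0.09 to 9.02, 8.10 and 8.34, which is 380-fold higher, and its partner Krt18 was 240-fold higher. Krt19 was 83.4-fold and Krt7 61.0-fold higher. Trophoblast regulators did not share a direction. Gata3 was 4.03-fold higher, and Tead4, the member called lower, was 4.31-fold lower (5.22 to 3.80, 2.79 and 2.76). Cdx2 was not called but was lower in all 3 libraries (2.74 to 1.11, 2.11 and 0.82). The list of genes of the epithelial to mesenchymal transition had 12 higher and 1 lower of 15, with 4 more under the filter and a median difference of 2.68. Those higher were for the most part epithelial: the splicing regulator Esrp1 was 193-fold higher, the tight junction claudins Cldn7 and Cldn6 200-fold and 110-fold, Epcam 4.06-fold and E-cadherin (Cdh1) 2.67-fold. Zeb1, a repressor of E-cadherin, was 6.22-fold lower. The mesenchymal markers Vim and N-cadherin (Cdh2) were not called, at 6.32 and 7.08, 6.42 and 6.48 for Vim and 3.62 and 3.13, 2.26 and 2.24 for Cdh2.

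Contractile genes of smooth muscle were higher on day 6 in 13 of 17 cases and lower in 0, with a median difference of 2.71, and 3 further genes were under the filter. Tagln, an actin-binding protein, had 14 reads at Day0 and levels of 9.20, 7.63 and 8.37 on day 6, which is 537-fold higher. Cnn1, calponin, was 376-fold higher, from -2.48 to 6.36, 5.64 and 6.23, and the myosin light chain gene Myl9 was 117-fold higher. Acta2, smooth muscle actin, had 2 reads at Day0 and 1401, 317 and 373 on day 6. Acta1, skeletal muscle actin, had 0 reads at Day0 and 663, 144 and 195, at least 56.8-fold higher. Nons was the highest of the 3 libraries for each of these genes, and Actg2 was under the filter.

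Many contractile genes carry a CArG box, the element bound by serum response factor, so the promoters of the list were searched for it. RefSeq promoters (GRCm38.p6, both strands, 250 bases before to 50 after the start) were found for 17 of the 20 members, and 4 of them (23.5%) held a CArG box, against 1.81% of all 27025 genes with a promoter. Among all genes called higher the share was 1.65%, among all called lower it was also 1.65%, and among those not called 1.48%. The 3 called members with a box are shown as windows read along the gene's strand, with the box in capitals:
Myl9 (chr2:156775283-156775332, plus strand): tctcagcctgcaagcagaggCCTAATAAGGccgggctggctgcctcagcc
Acta1 (chr8:123894819-123894868, minus strand): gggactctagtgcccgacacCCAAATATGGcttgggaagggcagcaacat
Cnn2 (chr10:79988524-79988573, plus strand): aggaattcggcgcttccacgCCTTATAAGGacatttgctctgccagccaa
The boxes begin 161, 73 and 56 bases before the start. Cnn2, a calponin chosen for display after its value was seen, went from 2.95 to 7.75, 6.50 and 6.88. The fourth gene with a box was Vcl, named for the same reason, which was not called (7.14 at Day0 and 8.52, 7.78 and 7.99).

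Targets of the coactivators YAP and TEAD, which respond to cell shape and attachment, were higher in 9 of 13 cases and lower in 0. Cyr61, a matricellular protein, went from 3.59 to 8.48, 7.67 and 8.23 (23.1-fold), and Axl, a receptor tyrosine kinase, was 27.1-fold higher. F3, tissue factor, was 9.34-fold and Amotl2 3.63-fold higher. Ctgf, which stands beside Cyr61 in most such lists, was not called (5.84 and 5.60, 5.29 and 5.70).

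Fibroblast and collagen genes were divided, with 6 higher, 3 lower and 8 not called of 17, and 9 under the filter. Thbs1, thrombospondin, was 284-fold higher, the collagen crosslinking enzyme Loxl2 17.1-fold, the matrix protease Mmp2 9.56-fold and Col1a1 2.86-fold. Fibronectin (Fn1) was 8.0-fold lower, Timp1 6.57-fold lower and Col6a1 5.62-fold lower. Col1a2 was 0.48 at Day0 and 0.88 in Nons but 4.35 and 3.60 in the hairpin libraries. The defining fibroblast markers Col3a1, Dcn and Lum were under the filter. Of 14 cardiac genes 7 were under the filter, and among the rest Myh6 was 8.67-fold higher and Myl7 3.36-fold lower. Of 16 endothelial and blood genes 8 were under the filter, and among the rest Flt1, with 3 reads at Day0 and 1878, 703 and 891 on day 6, and Etv2 (5.55-fold) were higher and Pecam1, an adhesion molecule that mESCs also express, was 11.6-fold lower.

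Marker sets of other cell types were summed to show how far each was present. The 7 mESC markers summed to 6010 CPM at Day0 and 1850 to 2080 CPM on day 6, and 6 of 7 were lower. Pou5f1, which was not called, made up 1310 to 1530 CPM of the day 6 sums, and the other 6 markers together went from 4790 to 364, 667 and 548 CPM. The 4 smooth muscle markers summed to 0.897 CPM at Day0 and 256 to 710 CPM on day 6. Trophoblast markers summed to 7.67 CPM and 39.4 to 82.7 CPM, fibroblast markers to 11.1 and 28.8 to 41.3 CPM, endoderm markers to 2.78 and 5.44 to 8.78 CPM, cardiac markers to 5.12 and 5.57 to 9.05 CPM, neural markers to 166 and 81.3 to 111 CPM and endothelial markers to 234 and 15.1 to 38.1 CPM. Blood markers were at 0.135 CPM and at most 1.29 CPM. Single genes made up most of several sums. The trophoblast sum rose through Krt7 (-0.31 to 6.33, 5.10 and 5.45). Cdx2 was lower in all 3 libraries of day 6 (2.74 to 1.11, 2.11 and 0.82), and 2 other trophoblast markers were under the filter. Most of the smooth muscle sum on day 6 was Tagln, most of the neural sum Tubb3 and most of the endothelial sum Pecam1. What part changing proportions of cells had in any gene's difference was not tested.

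**Figure D3:**
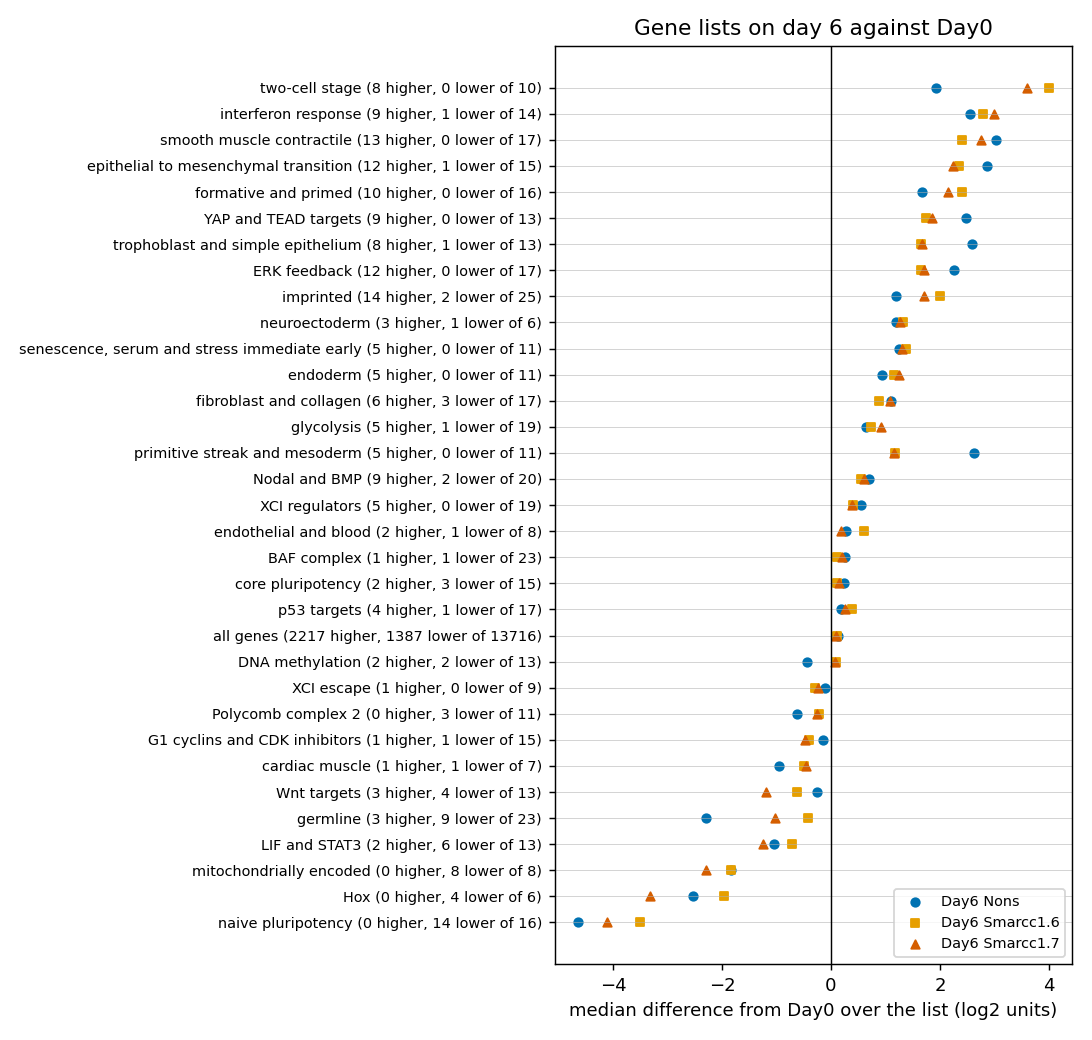
Median difference from Day0 on the log2 scale over the members of each gene list that passed the filter, for Nons (circles), Smarcc1.6 (squares) and Smarcc1.7 (triangles), with the number of members called in each direction. Averaged over the 3 libraries, naive pluripotency genes lie lowest and 2-cell stage genes highest, and all genes together lie at 0.09 to 0.13.

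Germline genes, many of which are kept off in the body by promoter DNA methylation, were lower in 9 and higher in 3 of the 23 that passed, with 11 not called and 1 under the filter. The median difference was -1.14, with -2.29, -0.42 and -1.03 in the single libraries, and it was -0.52 without Nons. Dazl, an RNA-binding protein of germ cells, went from 9.68 to 2.19, 3.94 and 3.20 (95.1-fold lower). Hormad1, a protein of the meiotic chromosome axis, went from 7.62 to 0.70, 4.05 and 3.70, Asz1, a protein of the piRNA pathway, from 4.67 to -0.55, 0.89 and 0.26, and Stk31, a kinase gene of the testis, from 6.44 to 2.46, 3.87 and 3.65. Nons was the lowest of the 3 in all of these. Tdrd1 (14.7-fold), Ddx25 (5.76-fold) and Tdrkh (2.69-fold) were higher, Tdrkh not after centring or median-of-ratios scaling, and Ddx4, Mael and Sycp3 were not called. For Mael, Day0 had 2.94 and Nons 2.83, against 4.50 and 4.36 in the hairpin libraries.

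Germline promoters often hold CACGTG, an E-box that the repressor complex of E2F6, MGA and MAX can bind, and the letters were searched on both strands, which are the same for a palindrome. Of 22 germline genes with a promoter 12 (54.5%) held CACGTG, against 8.09% of all 27025 genes and 12% of those that passed the filter. By call the shares were 4 of 9 among those lower, 2 of 3 among those higher and 6 of 10 among the rest. Those lower are shown, with CACGTG in capitals, each read along the gene's strand, and for Hormad1 only the first of 2 matches:
Hormad1 (chr3:95559600-95559645, plus strand): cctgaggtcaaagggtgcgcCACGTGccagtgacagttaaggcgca
Stk31 (chr6:49395464-49395509, plus strand): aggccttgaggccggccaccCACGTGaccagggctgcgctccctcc
Sycp1 (chr3:102936169-102936214, minus strand): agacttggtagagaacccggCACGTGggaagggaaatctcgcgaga
Brdt (chr5:107331096-107331141, plus strand): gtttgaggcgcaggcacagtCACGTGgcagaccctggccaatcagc
Sycp1, a synaptonemal complex gene, went from 6.67 to 3.41, 5.16 and 4.57 and Brdt, a bromodomain gene of the testis, from 3.49 to 0.03, 1.63 and 1.45, and both were chosen for their promoters after their values were seen. A match is a description of these windows and not evidence of binding.

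DNA methyltransferases and Polycomb genes moved in part. Dnmt3l, the cofactor of the de novo enzymes, went from 4.70 to 7.19, 8.68 and 8.4 and was called higher with Dnmt3b, whereas Dnmt3a was 7.23 at Day0 and 7.79, 9.35 and 9.06 on day 6 and was not called because of Nons. The maintenance enzyme Dnmt1 was not called (8.57 and 8.13, 8.09 and 7.81), while its partner Uhrf1 was 2.73-fold lower and the demethylase Tet2 14.8-fold lower. Of 11 genes of Polycomb complex 2, 3 were lower and 0 higher: Mtf2 (3.82-fold), Suz12 (2.93-fold) and Eed (2.15-fold). Ezh2, the catalytic subunit, went from 7.52 to 7.08, 7.27 and 7.35 and Jarid2 from 8.74 to 8.08, 8.57 and 8.45, and neither was called. Of 25 BAF subunit genes 2 were under the filter and 21 were not called. Smarca2, the alternative ATPase, was 5.38-fold lower and Smarcc2, the paralogue of Smarcc1, was 2.48-fold higher, from 3.63 to 4.86, 5.18 and 4.79. The ATPase Smarca4 had 7.72 at Day0 and 8.22, 8.27 and 8.02 on day 6.

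Xist, the non-coding RNA that coats the chromosome to be silenced (chrX:103460375-103483217, mm10), had 158 reads at Day0 and went from 2.83 to 10.09, 9.11 and 9.76 (SD 0.50 on the log2 scale). All 3 libraries were far above Day0, and Smarcc1.6 was the lowest of them. Tsix, its antisense gene (chrX:103431517-103484957), went from 2.26 to 6.65, 5.78 and 6.29. The 2 genes overlap, and whether reads were counted by strand is not given in the sources used here, so reads of one may be counted for the other and the Tsix level is uncertain. Of 19 XCI regulators 5 were called higher and 0 lower. Beside Xist and Tsix these were Rlim, the X-linked ubiquitin ligase that activates Xist (2.06-fold, no longer called after centring or median-of-ratios scaling), Satb1, a chromatin organiser (23.4-fold), and Ciz1, a nuclear matrix protein that anchors Xist RNA (5.24-fold).

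Genes on the X chromosome were lower as a set. Over 533 X-linked genes the median difference from Day0 was -0.43, against 0.12 over 13174 autosomal genes, and the X stood 0.56 log2 units below the autosomes. Taken 1 library at a time, this gap was -0.62, -0.50 and -0.57. No autosome came close, as their medians ranged from -0.17 (chromosome 13) to 0.15 (chromosome 15) relative to all autosomes together. On the X, 59.1% of genes were lower in all 3 libraries, where autosomes had 35.5%. The share called lower was 24.8% on the X and 9.47% elsewhere. A smaller share was called higher, 14.6% against 16.2%. Genes are not replicates and no test was made. These are total levels, since allele-specific values were not analysed here.

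**Figure D4:**
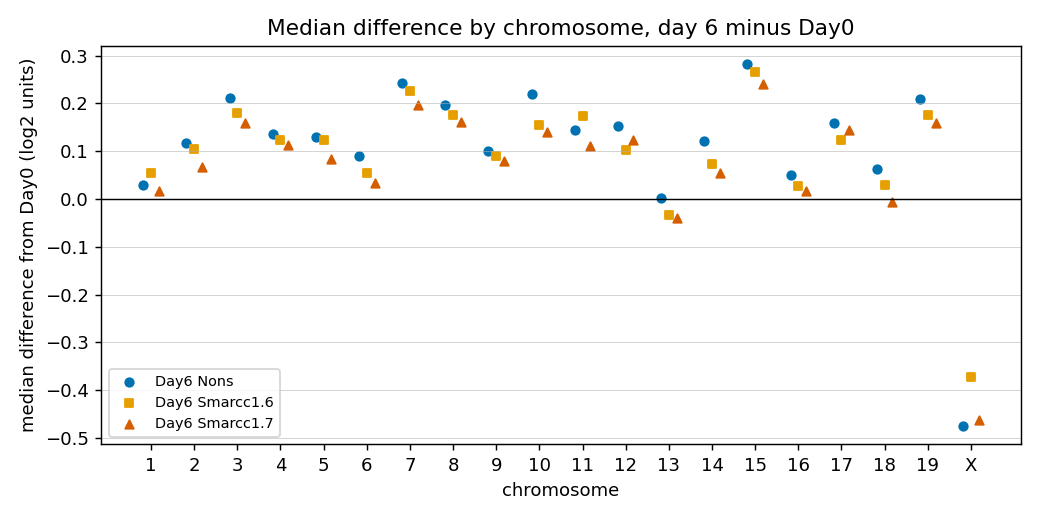
Median difference from Day0 on the log2 scale over the genes of each chromosome that passed the filter, for Nons (circles), Smarcc1.6 (squares) and Smarcc1.7 (triangles). In every library the X lies at or below -0.37, and every autosome lies above -0.05.

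Of 9 listed genes known to be expressed from both X chromosomes that passed, 8 were not called and 1 was higher. Over all genes, 10112 of 13716 were not called. The median difference of the list was -0.18, and 3 more members were under the filter. Summed over the list, CPM was lower on day 6, at 2850 for Day0 and 2170, 2170 and 1890. Ddx3x had 10.95 at Day0 and 10.39, 10.34 and 10.14 on day 6, and Kdm6a had 6.90 and 7.30, 7.30 and 7.12. Kdm5c was not called, and Shroom4 was 2.63-fold higher. Eif2s3x was not called either, at 6.18 and 6.12, 6.40 and 6.11. The libraries of days 4, 5 and 7, which differ in read assignment, had 7.96 to 8.94 for Eif2s3x, so its value here is uncertain. The X-linked genes with the largest increases included Fndc3c1 (238-fold), Plac1, a gene of the placenta, Tceal5 (at least 39-fold) and the leukotriene receptor gene Cysltr1. Those with the largest decreases were Gm773, with 321 reads at Day0 and 0 in every library of day 6 (at least 166-fold), 4930550L24Rik (2053 reads and 4, 5 and 7), 1700080O16Rik (428 reads and 0, 4 and 4), Magea3 and Xlr5b (at least 27.5-fold). Xlr5b belongs to a family of near-identical copies and its value is uncertain.

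Imprinted genes were higher in 14 of 25 cases and lower in 2, with 3 more under the filter and a median difference of 1.55. H19, a maternally expressed non-coding RNA, went from 4.39 to 10.86, 10.92 and 10.79 (88.5-fold), and its neighbour Igf2, expressed from the paternal copy, from 0.69 to 4.00, 4.04 and 3.71. Meg3 was 31.8-fold and Dlk1, from the same cluster, 2.93-fold higher. The retrotransposon-derived Peg10 was 20.1-fold higher and reached 11.51 in Nons, and Nnat was 31.2-fold higher. The zinc finger gene Plagl1 was 16-fold lower and Peg12 5.57-fold lower. For H19 the SD over the 3 libraries of day 6 was 0.07.

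Genes encoded in the mitochondrial genome were lower without exception among the 8 of 13 that passed, with a median difference of -1.97. They took 2.44% of reads at Day0 and 0.407% to 0.542% on day 6. The cytochrome oxidase subunit mt-Co1 went from 13.82 to 11.44, 11.50 and 11.12 (5.51-fold) and mt-Cytb was 5.81-fold lower. mt-Nd1 and mt-Nd2 were 3.85-fold and 3.81-fold lower. Rescaling every library to the reads outside these genes, a step chosen after seeing the data, gave 2179 genes higher and 1432 lower. Of 19 glycolytic genes 5 were higher (26.3%), 1 was lower (5.26%) and 13 were not called, with a median of 0.75. Over all genes that passed, 16.2% were higher and 10.1% lower. The lactate exporter Slc16a3 was 6.26-fold, the glucose transporter Slc2a1 3.50-fold and lactate dehydrogenase Ldha 3.10-fold higher. The phosphofructokinase Pfkl was 2.99-fold higher, while Pfkp, another phosphofructokinase, was 4.02-fold lower. Hk1, Hk2 and Gpi1 were not called, although Hk2 was called lower after centring or median-of-ratios scaling.

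Interferon response and antigen presentation genes were higher in 9 and lower in 1 of 14, with 3 more under the filter and a median of 2.82. Psmb8, a subunit of the immunoproteasome, had 3 reads at Day0 and 1437, 2881 and 2797 on day 6, and Oasl2 had 1 read and 405, 925 and 823. Isg15, a ubiquitin-like protein, had 0 reads and 337, 281 and 317, at least 66.6-fold higher. Irf1 was 12.9-fold higher. Irf9 was not called and Irf7 was under the filter. All 3 libraries of day 6 had been transduced and Day0 had not, so these differences cannot be told apart from those of transduction.

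Growth factor signalling of the TGF-beta family gave 9 higher and 2 lower of 20, with 3 more under the filter. The BMP targets Id1 (31-fold) and Id2 (25.6-fold) and the ligand Tgfb1 (3 reads at Day0 and log2 CPM of 1.6, 0.61 and 0.65) were higher. The activin subunit Inhbb was 24.6-fold and Id4 8.52-fold lower. Nodal had 6.26 at Day0 and 6.48, 6.28 and 6.00 on day 6 and was not called, nor were its inhibitors Lefty1 and Lefty2 or its co-receptor Tdgf1. Immediate early and stress genes were higher in 5 and lower in 0 of 11, with 2 more under the filter, including the AP-1 factor Jun (9.83-fold) and the heat shock gene Hspa1a (8.47-fold), and Fos and Srf were not called. Of 17 p53 targets that passed (1 more did not) 4 were higher and 1 lower: Pmaip1 (6.54-fold), Perp (5.97-fold), Bbc3 (3.75-fold) and Btg2 (3.44-fold) against Gdf15 (5.75-fold lower), with Cdkn1a, Mdm2, Trp53 and Ccng1 not called. Of 15 G1 cyclins and cyclin-dependent kinase inhibitors, Cdkn1c, which is imprinted, was 7.00-fold higher and Cdkn2c was lower, and the others, Ccnd1 to Ccnd3 included, were not called, although Ccnd3 was called lower after centring or median-of-ratios scaling. Of 39 Hox genes 33 were under the filter, and of the 6 that passed 4 were lower. The median was -2.75 over those that passed but -0.09 without a filter, so the decrease is not one of the whole list. The 4 lower genes included Hoxb9, Hoxc4 and Hoxc13, from Day0 levels of 1.77, 1.38 and 2.61.

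Genes of the 2-cell stage were higher in 8 of 10 cases, with 2 more under the filter. The summed CPM of the list, members under the filter included, was nonetheless lower on day 6, at 457 for Day0 and 329, 381 and 361. Zscan4c went from 0.17 to 2.25, 4.15 and 3.80, and Zscan4d had -0.02 and 2.31, 4.59 and 3.95. Zscan4b, Zscan4f and Tdpoz4, at -1.67, -1.89 and -2.16 at Day0, were also higher, and Zfp352 was not called. For all 8 called genes both hairpin libraries stood at least 1 log2 unit farther from Day0 than Nons did. Zscan4c, Zscan4d, Zscan4b and Zscan4f are near-identical copies in 1 cluster, and reads could be split among them in ways the files do not show, so their separate values are uncertain.

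Because the day 6 libraries differ in hairpin, each called gene was also placed between Day0 and Nons. For genes called higher, the difference from Day0 in Smarcc1.6 was 93.6% of that in Nons (median) and in Smarcc1.7 96.8%, and for genes called lower 85.9% and 92.8%. Both hairpin libraries were closer to Day0 than Nons by at least 1 log2 unit for 253 of the 1387 lower genes (18.2%) and 102 of the 2217 higher ones (4.6%). They stood farther from Day0 by as much for 25 and 80 genes. By any amount, both were closer to Day0 for 57% of the lower genes and 53% of the higher ones, and both were farther for 23.1% and 29.5%. The distance from Day0 to Nons enters both the call and these placements. Among lists, both libraries were closer to Day0 by at least 1 unit for 8 of 12 called germline genes, and closer by any amount for 12 of 13 smooth muscle genes, 9 of 9 YAP and TEAD targets and 11 of 14 naive genes. For formative genes 7 of 10 were farther away in both. The genes farthest toward Day0 were Dnajc5g, Gpr133, Pdha2, Gm14511, Iqca and Gm7325, with 0 or 1 read in Nons. Dnajc5g had 3.78 at Day0 and -0.01 and 0.10 in the hairpin libraries, and Pdha2, a testis form of a pyruvate dehydrogenase subunit, had 4.12 and 0.83 and -0.60. Those farthest the other way were Sox1, Sp5, Cyp24a1, Pramef6, Gm13078 and Osta. Cyp24a1, the vitamin D hydroxylase, had 0 reads at Day0 and 0.53 in Nons but 4.21 and 3.69 in the hairpin libraries. With 1 library per hairpin these placements have no replicate check.

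**Figure D5:**
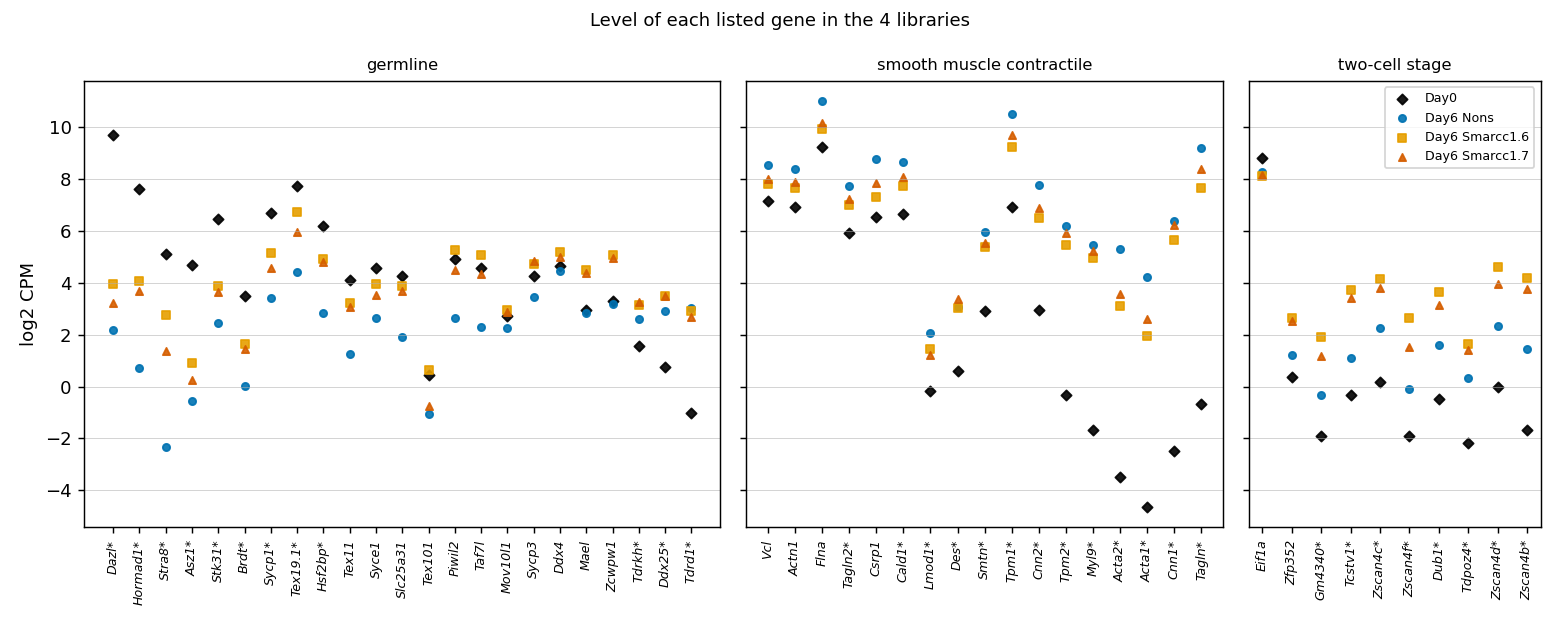
Log2 CPM of each germline, smooth muscle and 2-cell stage gene that passed the filter, in Day0 (diamonds), Nons (circles), Smarcc1.6 (squares) and Smarcc1.7 (triangles), with an asterisk on called genes. For most germline and smooth muscle genes the squares and triangles lie between the circle and the diamond, and for the 2-cell stage genes they lie beyond the circle.

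The Nons libraries of days 4, 5 and 7 were set beside the comparison to place each gene's difference in time. Of the genes called higher, 50.1% were more than 50% of the way from Day0 to the day 6 Nons level on day 4, 84.9% on day 5 and 90.2% on day 7. Of those called lower the shares were 52.1%, 84.2% and 88.9%. Without ribosomal protein genes and processed pseudogenes the shares were 50.1%, 85.0% and 90.3%, and 52.0%, 84.5% and 89.1%. Lists differed in timing. On day 4 the called formative genes stood at 89.7% of the way (median), the imprinted genes at 79.6% and the higher ERK feedback genes at 69.6%. The naive genes stood at 50.2% on day 4 and 85.4% on day 5. Germline genes that were lower stood at 15.7% on day 4 and 51.6% on day 5, and smooth muscle genes at 11.6% and 52.1%. Tagln shows the late course, with 0.48 on day 4, 4.85 on day 5, 9.20 on day 6 and 9.60 on day 7, and Dazl had 8.03, 4.68, 2.19 and -0.72. Genes of the 2-cell stage did not hold their day 6 level, as the 8 called genes stood at -32.4% on day 4, 112% on day 5 and -20.3% on day 7, and Zscan4c in Nons was -0.34, 2.47, 2.25 and -0.19 on days 4 to 7. The day 4, 5 and 7 libraries differ from the other 4 in how reads were assigned, and the part of this in single genes was not tested.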

How the data were processed

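RNA was sequenced from 13 libraries, and the 4 compared here were Day0 and the 3 of day 6, grouped by title with 1 library per group. The authors made TruSeq libraries, sequenced paired ends on a NextSeq500, trimmed reads with trim_galore and mapped them to mm10 masked at FVB/NJ and CAST/EiJ variants. The submitters' processing notes list TopHat2 2.0.12 and bcl2fastq, while tophat and hisat2 both stand in the paper's methods with no library assigned to either. The strand setting and the annotation release are not given in the sources used here. The authors counted reads per gene in Seqmonk and deposited log2 values of CPM, with both alleles together. All 13 columns were used, so 0 columns were left out.

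The deposited log2 values fall on steps of whole reads, which gave each library's depth, and a gene with 0 reads is written as 0.9 reads. No other pseudocount was added. A log2 CPM of -2.89 at Day0, and of -3.63 to -3.41 on day 6, corresponds to 3 reads, and such floors and bounds cover counting error only. Differences of genes with 0 to 3 reads depend on the 0.9, so they are given as reads, or as a bound with 0 set to 3 reads per library and log2 levels averaged as for other folds.

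Genes were kept at a CPM of at least 1, averaged over Day0 and the day 6 mean. A gene was called where all 3 differences from Day0 were at least 1 log2 unit in 1 direction. No test was the main result. Medians were taken over 32 gene lists (24 symbols written in them were not in the table) and over chromosomes. Genes named were Smarcc1, Xist and Tsix, the first 4 of each list, up to 4 called members per list and direction with the largest smallest difference, the 12 largest differences overall in each direction (predicted genes excluded), the 5 largest on the X, and the 6 for which both hairpin libraries stood farthest from Nons in each direction. Some genes that this rule names are not reported here. Other genes are named as not called, or as chosen after their values were seen: beside those so marked these are Dppa3 and Fgf4, and Dcn and Lum are markers. The members, lists and rules were chosen with earlier results of these data known. Gene types and hairpin targets came from GENCODE M21 (mm10), with 89.8% of kept genes matched, and promoters from RefSeq. Alternatives were another threshold, other filters, centring, median-of-ratios scaling, thinning to equal depth, leaving out libraries and limma. The limma script was checked on simulated data. Python 3.11.15, numpy 2.4.6, pandas 2.3.3, matplotlib 3.10.9, R 4.3.3 and limma 3.58.1 were used.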

Additional observations from a re-analysis of the deposited data

How the results depend on the processing

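No gene called in either direction was called in the other under any alternative scaling, filter or left-out library. The counts of 2217 higher and 1387 lower became 1238 and 582 with a smallest difference of 2, 3523 and 2120 without a filter, and 1267 higher at a mean CPM of at least 5. A limma fit of day 6 against Day0, in which the lone Day0 library is assumed to vary like the day 6 libraries, gave 3544 higher and 2280 lower at a Benjamini-Hochberg adjusted p under 0.05 (7229 at an unadjusted p under 0.05), of which 2148 and 1205 were shared with the rule of size. Centring on the autosomal median moved all differences by -0.11 and median-of-ratios scaling by -0.15, and the share of calls that were higher went from 61.5% to 56.7% and 55%. With centring the median of the core pluripotency list was 0.14. The median of the epithelial to mesenchymal transition list was 3.17 without a filter, 2.02 at a mean CPM of at least 5, and 2.32 to 2.91 when 1 day 6 library was left out, with 2.32 reached without Nons. The germline median (-1.14) was -0.52 without Nons. With Nons as the sole library of day 6, for the filter too, the medians were 1.67 for formative, -2.34 for germline, 2.26 for ERK feedback and 3.03 for smooth muscle genes. The neuroectoderm median, 1.25 over 6 genes, reversed to -0.59 at a mean CPM of at least 5 and to -0.75 with Nons alone. The endothelial and blood median (0.42) was -0.95 at that filter, and the DNA methylation median (-0.16) was 0.15 without Nons. The Hox median (-2.75) was -0.09 without a filter, and none could be had at a mean CPM of at least 5. The X-linked median relative to autosomes and the naive and mitochondrial medians kept their direction under every alternative in which they were computed. The cause of these shifts was not tested. Depth limits the genes with few reads on one side: 259 of the higher genes had at most 3 reads at Day0, 108 of them 0.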
